A study of Saccharomyces cerevisiae with 23 samples.

Results

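The proteasome subunit genes described here are the features of the deposited table whose current symbol consists of PRE, PUP, RPN or RPT and a number, together with SCL1. Of 6334 features in the table, 34 met this rule, and all 34 were paired exactly with a gene of the R64 reference annotation. They hold 14 genes of the core particle, 7 of its alpha ring and 7 of its beta ring. They also hold 18 genes of the regulatory particle, namely 6 ATPases, 4 other subunits of the base and 8 subunits of the lid. These 32 genes are called the structural subunits below. The remaining members are RPN14, which encodes a chaperone for assembly of the base, and RPN4, which carries the family's name but encodes a transcription activator. The small lid subunit gene SEM1 does not match the rule by its symbol and was counted among the associated factors.

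The proteasome is the large protease that degrades proteins marked with ubiquitin. Its core particle is a barrel whose beta rings hold the active sites and whose alpha rings close the ends. The regulatory particle binds ubiquitin chains, removes them, and unfolds the substrate with a ring of ATPases. In budding yeast the activator Rpn4 drives transcription of most subunit genes and is itself a short-lived substrate of the proteasome.

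Transcript levels were measured as log ratios in 23 mutation accumulation (MA) lines of Saccharomyces cerevisiae, whose labels run, not without breaks, from 19-1 to 19-50. Each is named by its second number. MA lines are kept apart over many transfers, so that each collects its own spontaneous mutations. Lines and the common reference strain YPS183 were grown in YPD, a rich glucose medium, at 30 °C and sampled in log phase without synchronization, the lines at an OD600 near 1.0 and YPS183 at 1.1. RNA of each line was compared with that of YPS183 on 2-channel spotted arrays, the line in the 555 dye and YPS183 in the 647 dye, with no dye swap. The ancestor was not among the columns and its relation to YPS183 is not in the labels, so a mean that differs from 0 cannot be told apart from a difference of the reference strain, its culture or its dye. One column stood for each line, and differences between lines, cultures and arrays cannot be told apart. In bulk cultures, a different mix of cells and a different RNA level per cell cannot be told apart either.

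The columns were centred, with medians from -0.0178 to 0.0176, and their SDs went from 0.245 to 0.583. No source used here states the numerator of the ratio or which logarithm was taken. Values are therefore treated as log2, and their signs are those of the deposited table, with no direction between line and reference. Of 253 pairs of columns, 28 correlated below -0.3 over all features, with the lowest r of -0.636 between lines 4 and 44. Since the labels give every line the same dye and the lines could oppose one another, no column was turned. The columns of lines 1 and 45 correlated at r = 0.899 and were kept as separate lines. The leading principal component of the features other than members carried 44.2% of their variance, which is the main way in which the lines differed.

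The regulator gene RPN4 (YDL020C) varied widely between lines and had no shift in one direction. Its log ratio ran from -0.69 in line 6 over a median of 0.036 to 0.79 in line 44, with a mean of 0.052 ± 0.076 (SE, n = 23, limma adjusted p = 0.743). It was positive in 13 lines and negative in 10, with line 21 (0.70), line 45 (0.57) and line 1 (0.49) next to line 44 at the high end and line 25 (-0.63) and line 22 (-0.475) next to line 6 at the low end. Its SD of 0.380 lay at percentile 76.4 of all features. RPN4 followed the leading component over the lines (r = 0.868) and ran against the median of 137 cytosolic ribosomal protein genes (r = -0.652, rho = -0.734).

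The subunit genes showed no common shift from the reference. None of the 34 members had a mean different from 0 by limma at an adjusted p under 0.05, where 9.22% of all features were called, and 6 members had an unadjusted p under 0.05, as did 24.3% of all features. Means were positive for 20 members and negative for 14, with a median of 0.0156 beside -0.000269 over all features. The 14 core genes had a median mean of -0.002 and the 18 regulatory particle genes 0.023.

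Nearest to the threshold was SCL1, an alpha ring gene, which ranged from -0.46 in line 25 over a median of -0.105 to 0.22 in line 20. Its mean was -0.10 ± 0.04 (SE, n = 23, limma adjusted p = 0.0779), with 15 lines negative and 8 positive. RPT6, an ATPase of the base, ranged from -0.67 in line 10 over a median of 0.18 to 0.66 in line 20. Its mean was 0.17 ± 0.06 (adjusted p = 0.0841 by limma), with 18 lines positive, so that line 10 stood at the far end from most others. PRE10, of the alpha ring, ranged from -0.40 in line 10 over 0.14 to 0.63 in line 20 and had a mean of 0.14 ± 0.05 (adjusted p = 0.107 by limma). RPN1, the base subunit that docks ubiquitin shuttles, ranged from -0.75 in line 8 over -0.12 to 0.44 in line 6 and had a mean of -0.16 ± 0.07 (adjusted p = 0.153 by limma). Single lines moved some of these across the threshold: without line 10, RPT6 (0.21, adjusted p = 0.0117) and PRE10 (0.16, adjusted p = 0.037) passed, and without line 20, SCL1 did (-0.12, adjusted p = 0.0406). Weighting the arrays by their estimated quality brought 4 members past it, PRE7, SCL1, RPT6 and RPN2, while the calls over all features grew from 584 to 1298.

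Most members varied more from column to column than the median feature did. The median SD of the 34 members was 0.330, beside 0.256 over all features, and 23 members lay above the median of all features, 8 of them core and 14 regulatory particle genes. A description of this kind does not separate lines from cultures or arrays. RPN13, a ubiquitin receptor of the base, spread the most (SD 0.470, percentile 85.0), from -0.93 in line 42 over a median of 0.109 to 1.19 in line 40. PRE1, a beta ring subunit without an active site, ran from -0.62 in line 42 over -0.074 to 1.24 in line 40 (SD 0.448). Both genes were thus lowest in line 42 and highest in line 40. PRE4, another beta ring subunit, had its extremes in lines 10 (-0.86) and 21 (0.70), with an SD of 0.399. PRE9, the one alpha ring gene that yeast can live without, had them in lines 7 (-0.62) and 40 (1.06), with an SD of 0.398. At the other end, RPN10, the ubiquitin receptor that joins base and lid, stayed between -0.32 in line 22 and 0.30 in line 19 (SD 0.152, percentile 8.9). SCL1 (SD 0.163), PRE7 (0.187) and PUP3 (0.214) followed, PRE7 and PUP3 being beta ring genes without an active site. Differences in spread between genes include the noise of their spots, which was not measured here.

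**Figure D1:**
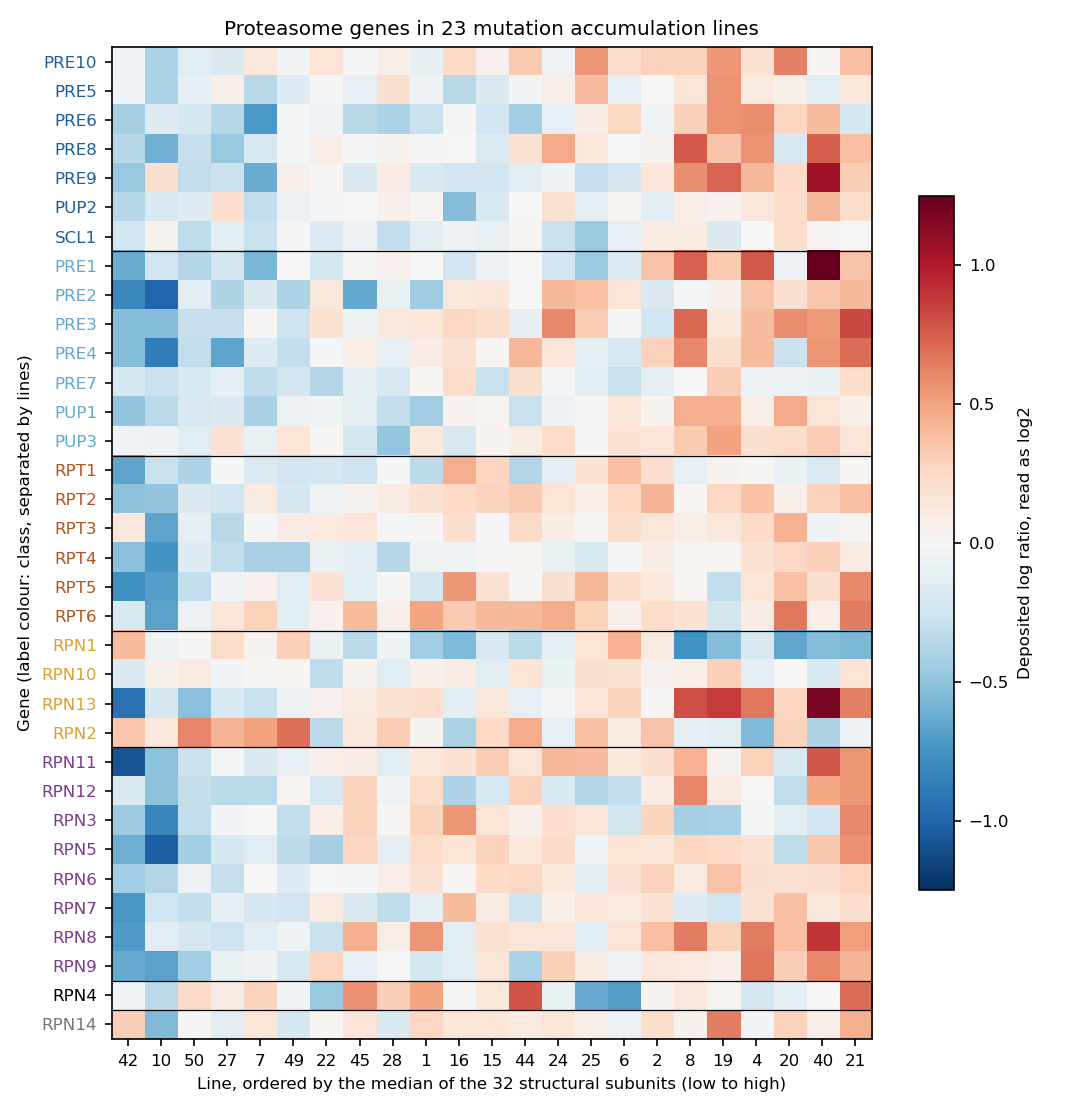
Deposited log ratio, read as log2, of the 34 genes (rows, grouped by class and coloured by label) in 23 lines (columns, ordered from low to high by the median of the 32 structural subunits). Lines 42 and 10 at the left are blue in most rows, lines 21 and 40 at the right are red in most rows, and the RPN1, RPN2 and RPN4 rows do not follow that order.

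Most structural subunits moved together from line to line. In line 42, 29 of 32 structural genes were negative, among them all 14 core genes, and in line 10, 28 were. In line 50, 29 were negative as well, but less deeply, and in line 27, 26 were. Line 21 had 29 positive, line 4 had 27, and lines 2 and 8 had 26 each. The deposited columns were centred, so these counts are relative to the middle of each column. Line 10 held the lowest value of 12 structural genes and line 42 that of 11, while line 40 held the highest value of 7, line 21 that of 6 and line 19 that of 5. Wide columns hold more extremes of any set of genes. Over all features the interquartile range was widest in lines 10 (0.504) and 40 (0.450), beside 0.352 in line 42. Lines 10 and 40 also had the lowest estimated array weights (0.38 and 0.49), beside 0.93 for line 42.

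By class, line 42 had medians of -0.355 in the alpha ring, -0.54 in the beta ring, -0.52 in the ATPase ring and -0.62 in the lid. Line 10 had -0.19, -0.34, -0.67 and -0.51 in the same order. The median of all regulatory particle genes was lower than that of the core in both lines, at -0.52 and -0.39 in line 42 and -0.50 and -0.31 in line 10. The other base subunits, of the same particle, had medians of 0.081 in line 42 and 0.005 in line 10, which covered opposed members. In line 42 RPN13 was at -0.93 and RPN10 at -0.18, beside 0.39 for RPN1 and 0.34 for RPN2. In line 10 RPN13 was at -0.22 and RPN1 at -0.063, beside 0.074 for RPN10 and 0.133 for RPN2. In line 21 the medians of alpha ring, beta ring, ATPase ring and lid were 0.22, 0.36, 0.24 and 0.535, with the lid highest of the 4. The other base subunits had 0.051, with RPN13 at 0.63, RPN10 at 0.175, RPN2 at -0.073 and RPN1 at -0.57. In line 40 the same 4 medians were 0.40, 0.35, 0.14 and 0.41, with the ATPases lowest of the 4. The other base subunits had -0.287, with RPN13 at 1.19, RPN10 at -0.20, RPN2 at -0.37 and RPN1 at -0.54.

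Core and regulatory particle went up and down together, as a description without a test. Over the 23 lines the median of the 14 core genes correlated with that of the 18 regulatory particle genes at r = 0.742 (rho = 0.720). It was 0.675 without lines 40 and 42, the farthest from the middle in the core, and 0.625 without lines 10 and 42, the lowest in the regulatory particle, a choice made after the data were seen. The core median ran from -0.39 in line 42 to 0.37 in line 40, and the regulatory median from -0.52 in line 42 to 0.40 in line 21. The core minus the regulatory median averaged -0.028 (SD 0.155 over 23 lines), with the core above in 9 lines and below in 14. The widest gaps with the core above were in line 19 (0.34 in the core, 0.061 in the regulatory particle) and line 8 (0.31 and 0.085). The widest with the core below were in line 15 (-0.092 and 0.18) and line 7 (-0.29 and -0.036).

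**Figure D2:**
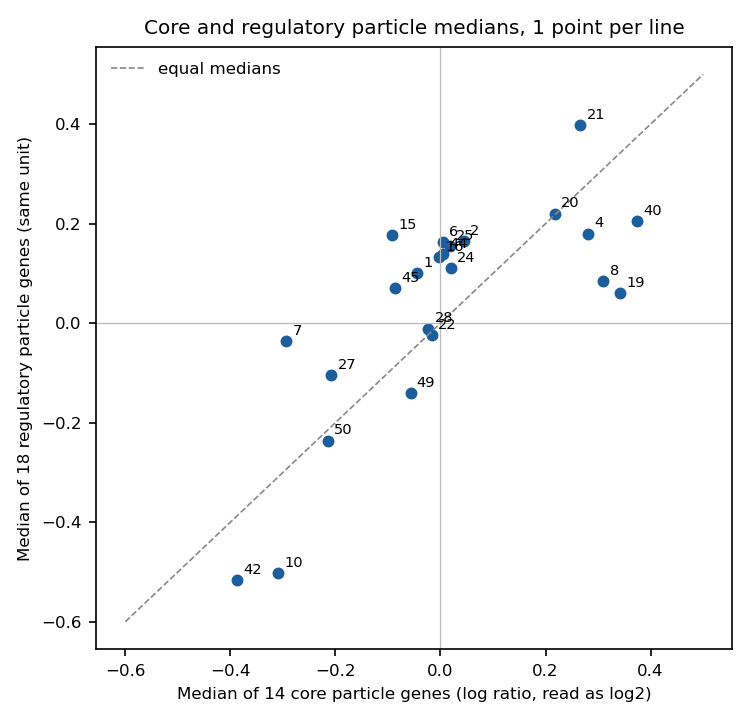
Median log ratio (read as log2) of the 14 core genes (horizontal) and the 18 regulatory particle genes (vertical), 1 point per line with its number; the dashed line marks equal medians. Lines 42 and 10 lie far down on the left and lines 21 and 40 up on the right, with 9 lines below the dashed line and 14 above it.

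Pair by pair, the 32 structural genes had a mean Pearson r of 0.335 over lines, beside 0.001 over all pairs of features, and 37.3% of their 496 pairs exceeded 0.5, beside 7.57%. The mean r within a class was 0.554 for the ATPases, 0.550 for the lid, 0.501 for the beta ring and 0.396 for the alpha ring. Pairs of a core with a regulatory particle gene had a mean of 0.308. The closest pairs were RPT2, an ATPase, with the lid scaffold subunit gene RPN6 (r = 0.917), PRE1 with PRE9 (0.887) and PRE4 with PRE8 (0.877), the latter pairs each joining a beta and an alpha ring gene. All pairs share the same arrays. Some subunit genes also lie close together in the genome: PRE4 and RPN12 with 1 annotated gene between them in R64 (r = 0.788), RPN8 and RPT4 with 1 (0.741), and PRE2 and RPN7 with 4 (0.699). The median of the structural subunits followed the third principal component of all other features (8.06% of the variance, r = 0.803) and hardly the leading one (r = -0.029).

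The class of other base subunits did not hold together, with a mean pairwise r of -0.082. RPN13 went with the rest (r = 0.818 with the median of the other structural subunits) and RPN10 weakly so (0.172). RPN1 and RPN2, the large scaffold subunits of the base, ran the opposite way, which was noticed after their values were seen. RPN1 had r = -0.597 and RPN2 r = -0.502 with the median of the other structural subunits, while the other 30 structural genes all had a positive r and 23 exceeded 0.5. RPN1 was negatively correlated with 30 of the 31 others and RPN2 with 29. Of the 78 negative pairs among the structural genes, 19 remained among the 435 pairs without these genes. RPN1 and RPN2 were positively correlated with each other (r = 0.538).

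The single lines showed the opposition unevenly. In line 42, where the median of the 30 other structural subunits was -0.49, RPN1 was at 0.39 and RPN2 at 0.34. In line 40, where that median was 0.31, RPN1 was at -0.54 and RPN2 at -0.37. RPN1 was also at -0.65 in line 20, -0.57 in line 21 and -0.75 in line 8, all lines with a positive median, where RPN2 was at 0.28, -0.073 and -0.12. Exceptions for RPN1 were line 6, which held its highest value (0.44) beside a median of 0.13, lines 25 and 2, where both were positive, and line 10, where it stood at -0.063 beside a median of -0.40. RPN1 and the median were also both negative in lines 45 (-0.34 and -0.015), 22 (-0.081 and -0.009) and 28 (-0.059 and -0.011).

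Gene length and chromosome position were set beside the pattern of RPN1 and RPN2, and neither was tested as a cause. The coding lengths of RPN1 (2982 bases) and RPN2 (2838 bases) exceeded that of the next longest structural gene, 1572 bases in R64. Over 5841 features with a length, the correlation with the structural median fell with gene length (rho = -0.355), as a description across genes that are not independent. Among the structural genes alone, the correlation with the other subunits had no such trend with length (rho = 0.027). With the trend of each column on gene length removed, chosen after the data were seen, r was -0.503 for RPN1 and -0.357 for RPN2. RPN2 lies on chromosome IX and had its highest values in lines 49 (0.69) and 50 (0.61), where the median of that whole chromosome was 0.32 and 0.25. Without lines 49 and 50, r was -0.579 for RPN1 and -0.443 for RPN2, and with each chromosome's median subtracted it was -0.595 and -0.492. Line 20 had lowered medians on chromosome VI (-0.23, with RPN11, PRE4 and RPN12), chromosome VIII (-0.22, with RPN1 and RPN10) and chromosome XIII (-0.24, with PRE8 and PRE5).

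**Figure D3:**
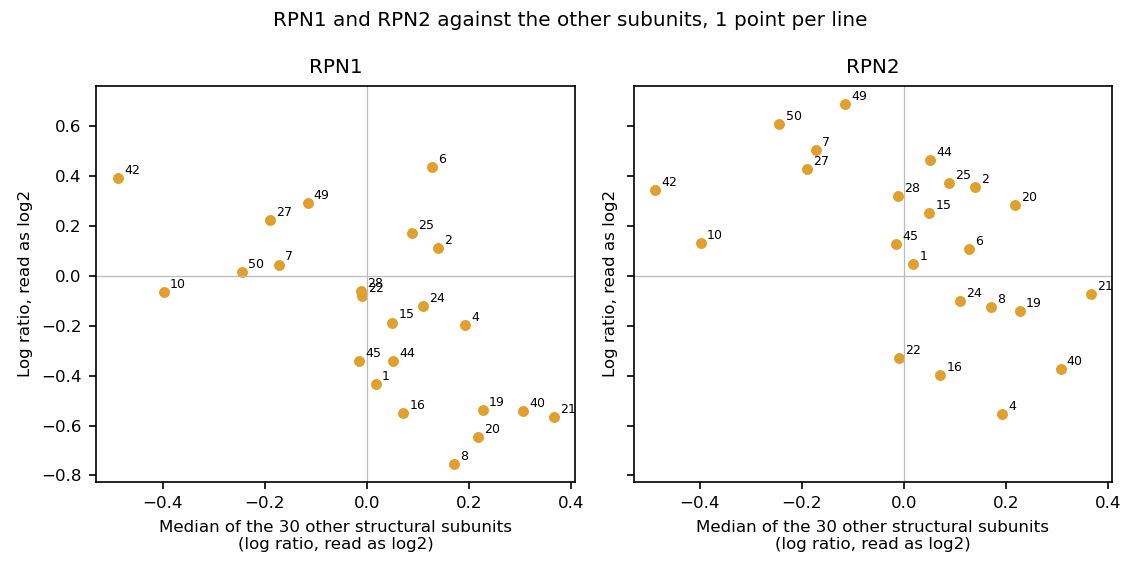
Log ratio (read as log2) of RPN1 (left) and RPN2 (right) against the median of the 30 other structural subunits, 1 point per line with its number. In both panels line 42 is at upper left and line 40 at lower right, and lines 49 and 50 have the highest RPN2 values.

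Set against the RPN4 transcript, few subunit genes followed it over the lines. The Rpn4 protein was not measured. The slope on the RPN4 value of the same column was called by limma for 2 of 33 members, 1 positive and 1 negative, where 18.9% of all features had a positive and 20.2% a negative call. A further 3 members had an unadjusted p under 0.05, making 5 of 33, beside 46.3% of all features. The absolute r with RPN4 was under 0.3 for 23 members, and 40.0% of the other features were that low. The median absolute r was 0.168 for the structural genes and 0.379 for all features. The medians of the core (r = 0.017), of the regulatory particle (r = 0.186) and of all structural genes (r = 0.076) had little relation to RPN4 over the lines, as a description.

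In the lines this showed as high and low RPN4 at similar subunit levels. Line 44, with the highest RPN4 (0.79), had a structural median of 0.051, and line 6, with the lowest (-0.69), had 0.13. Line 42, with the lowest structural median (-0.46), had RPN4 at -0.054. Line 40 had RPN4 near 0 and a structural median of 0.29. Line 21 was high in both (0.70 and 0.34).

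RPN12, a lid subunit that joins the lid last, was the member called positive. Its log ratio ran from -0.51 in line 10 over a median of -0.19 to 0.61 in line 8, and the 4 lines with the highest RPN4 had values of 0.29 (line 44), 0.55 (line 21), 0.28 (line 45) and 0.23 (line 1). The slope was 0.487 ± 0.148 per unit of RPN4 (SE, n = 23, limma adjusted p = 0.0108). The correlation was r = 0.572 (permutation p = 0.00389) and rho = 0.519 (permutation p = 0.0122), and r was 0.527 without lines 6 and 44, the farthest in RPN4. The call was lost after quantile normalization (slope 0.402, limma adjusted p = 0.0596) and lay at the threshold after scaling to a common median absolute deviation (0.423, limma adjusted p = 0.0498). The value in line 8, where RPN4 was at 0.135, was higher than in any of those 4 lines.

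PRE6, an alpha ring gene, was called negative. It ran from -0.72 in line 7 over a median of -0.10 to 0.58 in line 4, with -0.44 in line 44 and 0.26 in line 6. The slope was -0.446 ± 0.161 (SE, n = 23, limma adjusted p = 0.0298), with r = -0.503 (permutation p = 0.0145) and rho = -0.577 (permutation p = 0.00466). Without lines 6 and 44, r was -0.418 and the slope -0.434, close to that over all lines, but it no longer passed (limma adjusted p = 0.122). It also missed the threshold, at a similar slope, without line 6 alone (-0.448, limma adjusted p = 0.0592), line 44 alone (-0.434, 0.0667) or line 45 alone (-0.436, 0.0509).

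Next by p, all above the threshold by limma, were RPN1 (slope -0.397 ± 0.171, adjusted p = 0.0682), PRE7 (0.229 ± 0.10, adjusted p = 0.0717) and RPT6 (0.340 ± 0.155, adjusted p = 0.0847). Without line 20, RPN1 and RPT6 passed (adjusted p = 0.039 and 0.0451 by limma), making 4 members in all, and RPN1 passed with the gene length trend removed (-0.352, adjusted p = 0.0497). RPT6 also passed without line 25 (0.0417), and PRE7 without line 7 (0.0446) or line 19 (0.043). Nearest to no slope were RPN13 (0.003 ± 0.252), PRE9 (-0.036 ± 0.214), RPT5 (-0.037 ± 0.184), RPT3 (0.029 ± 0.125) and PRE5 (-0.032 ± 0.127). The standard errors of RPN13 and PRE9 leave room for slopes as large as that of PRE6. Permutation p-values were computed for the relations of 33 members with RPN4, and the limma values are adjusted over all features.

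The slopes depended on what else was held in the fit. With the median of the cytosolic ribosomal protein genes as a further term, 5 members were called by limma: PRE1 (0.939 ± 0.215, adjusted p = 0.00326), RPN12 (0.807 ± 0.170, 0.00178), PRE9 (0.696 ± 0.174, 0.00583) and RPN8 (0.729 ± 0.221, 0.0191) on the positive side and RPN1 (-0.763 ± 0.197, 0.00716) on the negative side. PRE6 was then near 0 (-0.020, adjusted p = 0.945), and 23.1% of all features were called. With the leading component as a term, no feature of the whole table was called, and the slope of RPN12 was 0.828 (adjusted p = 0.204 by limma). RPN4 itself correlated with the leading component (r = 0.868) and with the ribosomal protein median (r = -0.652). Either term thus left less of the variation of RPN4 to test, and the lack of calls is not read further.

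**Figure D4:**
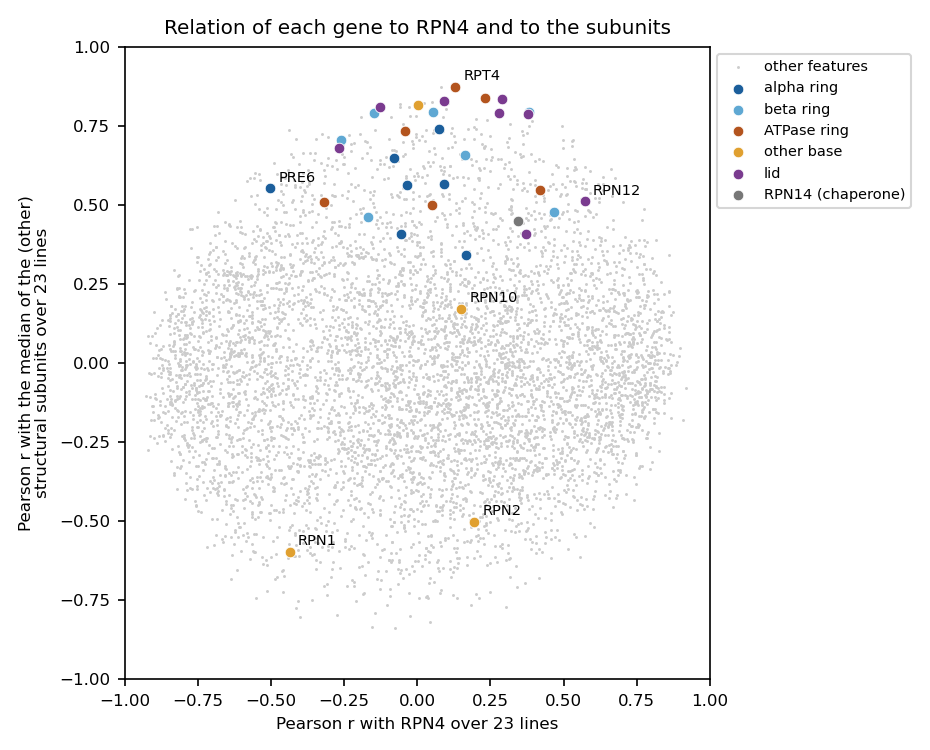
Pearson r of every feature with RPN4 (horizontal) and with the median of the structural subunits, leaving out the gene itself for members (vertical), over 23 lines; members are coloured by class. Most structural genes lie high up and near the middle horizontally, RPN1 (-0.597) and RPN2 (-0.502) lie low, and RPN12 and PRE6 lie farthest to the right and left among members.

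Other genes were tied closely to RPN4. By the lowest p, the 10 leading features were HSP42, on the positive side, and SPE4, ILV1, MNN1, RSC58, PRS1, VAS1, CDC60, NIP1 and SSB1, on the negative side. HSP42, which encodes a small heat shock protein, ran from -2.20 in line 6 over -0.185 to 1.71 in line 44, the same lines as the extremes of RPN4. Its slope was 2.30 ± 0.20 per unit of RPN4 (SE, n = 23, limma adjusted p = 1.28e-07), with r = 0.918 and rho = 0.786, given as a description since the gene was picked for this relation. Near the middle of the RPN4 range the values were scattered, such as -0.84 in line 2 (RPN4 0.048) and 0.46 in line 42 (RPN4 -0.054). Among the negative genes, VAS1 and CDC60 encode the valine and leucine tRNA synthetases, ILV1 threonine deaminase, SPE4 spermine synthase and SSB1 a chaperone on ribosomes. Their r with RPN4 ran from -0.901 (SSB1) to -0.926 (PRS1), and their r with the structural median from -0.274 (ILV1) to 0.087 (SPE4).

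**Figure D5:**
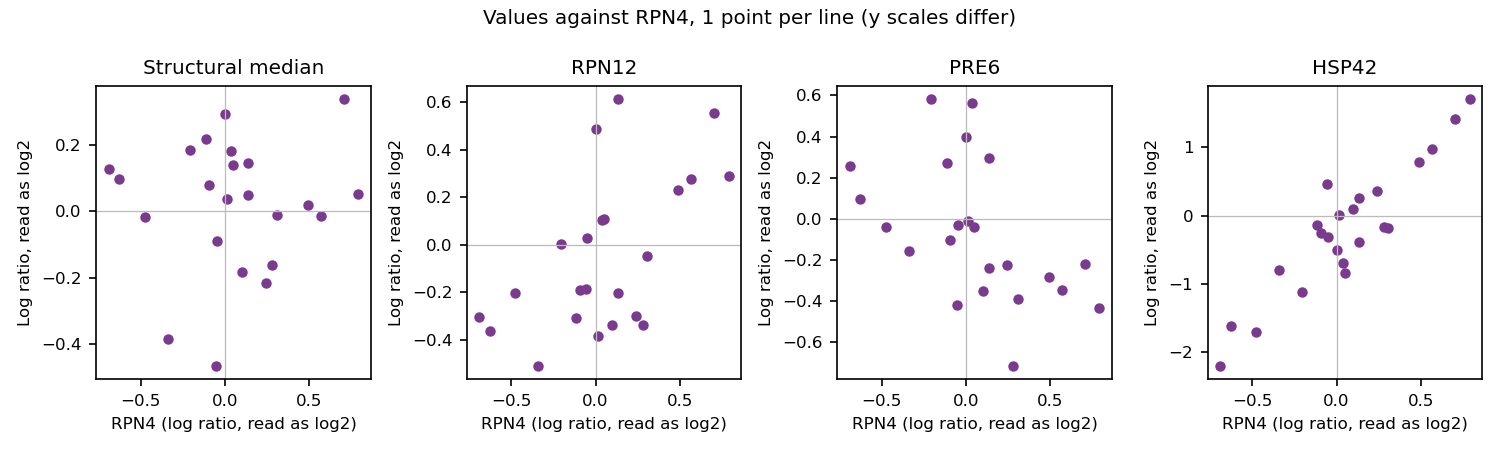
Log ratio (read as log2) of the structural median, RPN12, PRE6 and HSP42 against that of RPN4, 1 point per line, with a different vertical scale in each panel. HSP42 is lowest in the lines with the lowest RPN4 and highest in those with the highest, with scatter in between (r = 0.918), RPN12 and PRE6 are scattered (r = 0.572 and -0.503), and the structural median shows no trend (r = 0.076).

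The genes whose pattern was most like the median of the structural subunits were, by Pearson r over 23 lines, ARC19 (0.874), BET4 (0.825), GLD1 (0.824), CTK2 (0.823), OCA4 (0.820), APS3 (0.809), YKL033W-A (0.809), COQ10 (0.803), PHB2 (0.793) and YTH1 (0.789). ARC19, a subunit of the Arp2/3 complex that nucleates actin, ran from -1.74 in line 42 over -0.104 to 1.08 in line 40, the line of lowest and one of the lines of highest subunit levels. CTK2 encodes a kinase subunit for RNA polymerase, APS3 an adaptor subunit for vesicle transport and PHB2 a prohibitin of mitochondria. Of the 50 features closest to the structural median, 14 were structural genes, each of which contributes to that median. YTH1 (YPR107C) and GLD1 (YPR109W) flank RPN7 (YPR108W) by systematic name, as was seen after the ranking.

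Proteasome assembly and associated factors had slopes on RPN4 of either sign. Among 16 features of 15 such genes, 5 had a positive and 3 a negative slope called by limma, and 1 had a called mean. Over all features 18.9% had a positive and 20.2% a negative slope called, and 9.22% a mean, so the negative slopes and the mean were near that background. The positive slopes were above it in number, but this is not read further in a list of 16 features. The positive ones were FUB1, an inhibitor of the core, the base chaperones NAS2, NAS6 and TMA17, and UBP6, a deubiquitinase bound to the proteasome. Their slopes ran from 0.347 ± 0.110 for UBP6 (adjusted p = 0.0146 by limma) to 1.27 ± 0.23 for TMA17 (adjusted p = 0.000101 by limma). The negative ones were CIC1 (-0.793 ± 0.175) and the core chaperones IRC25 (-0.450 ± 0.075) and PBA1 (-0.444 ± 0.129), with limma adjusted p from 5e-05 to 0.00797. Other listed chaperones had no called slope by limma. These were ADD66 (0.111 ± 0.124, adjusted p = 0.513) and POC4 (-0.113 ± 0.122, adjusted p = 0.5) of the core, and HSM3 (0.320 ± 0.143, adjusted p = 0.0793) of the base. UMP1, the maturation factor of the core, had a slope of 0.209 ± 0.158 (adjusted p = 0.317 by limma), and SEM1 had 0.176 ± 0.146 (adjusted p = 0.366). The called mean belonged to one of the features of BLM10, an activator that caps the core (0.20 ± 0.05, limma adjusted p = 0.00547), and the other BLM10 feature had 0.15 ± 0.06 (adjusted p = 0.112). NAS6 (r = 0.750) and ADD66 (0.708) followed the structural median most closely.

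Of 22 genes for ubiquitin, its ligases and its shuttles, 4 had a positive and 1 a negative slope on RPN4 called by limma, beside 18.9% and 20.2% of all features, so the positive count was at the background and the negative one below it. UBI4, the polyubiquitin gene induced by stress, had a slope of 0.948 ± 0.197 (adjusted p = 0.000476 by limma) and ran from -1.76 in line 10 over -0.23 to 0.72 in line 21. UBC5, a ubiquitin-conjugating enzyme, had 0.664 ± 0.133, SHP1, a cofactor of the unfoldase Cdc48, 0.415 ± 0.093 and the shuttle DSK2 0.258 ± 0.095. The shuttle RAD23 had -0.395 ± 0.103 (adjusted p = 0.0036 by limma). In this list 2 means were called, a share near the 9.22% of all features, both negative, DOA1 (-0.19 ± 0.05, adjusted p = 0.0204 by limma) and UFD2 (-0.13 ± 0.04, adjusted p = 0.0324 by limma).

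Slopes of either sign were called for 39.1% of all features, positive ones for 18.9% and negative ones for 20.2%. The following lists are too short for their counts to be read against these shares. None of the 4 upstream activators listed for RPN4, HSF1, YAP1, PDR1 and PDR3, had a called mean or slope by limma. Their slopes ran from 0.081 ± 0.136 for YAP1 to 0.240 ± 0.159 for PDR3. Of 6 genes listed as other targets of Rpn4 or Pdr1, the aldose reductase gene GRE3 (1.92 ± 0.31) and the transporter gene PDR15 (1.90 ± 0.36) had a called slope (limma adjusted p = 3.65e-05 and 0.000203), and PDR5, MAG1, RAD52 and SNQ2 did not. PDR5, the main drug efflux pump, had 0.109 ± 0.435.

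No departure of a member in a single line was called, at a background too low for this to mark the members. Of 782 pairs of a member and a line, 0 were called by limma at an adjusted p under 0.05 and a distance of at least 1 from the other lines' mean, where 0.068% of all 145682 pairs were called. At that share, 0 calls among 782 pairs do not set the members apart from other features. At an unadjusted p under 0.05 there were 53 of the 782. The share over all features at that limit was not computed, so this count is not read further. The largest difference was that of PRE1 in line 40, which had a log ratio of 1.24 and lay 1.28 above the others' mean (limma adjusted p = 0.372). In line 42, RPN11, the deubiquitinase of the lid, lay at -1.08, a difference of -1.20 (limma adjusted p = 0.206), and RPN13 at -0.93, a difference of -1.12 (limma adjusted p = 0.743). In line 40, RPN13 was at 1.19 and PRE9 at 1.06, with differences of 1.10 and 1.08 (limma adjusted p = 0.761 and 0.484). The 5 largest differences thus came from lines 40 and 42, at the high and the low end of the structural median.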

How the data were processed

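The authors deposited normalized log ratios of 2-channel arrays, 1 column per line, which were read as log2. No source used here states the background correction, the normalization method or whether a column averages the 2 biological replicates named in the design. The table holds ratios only, so signal over background was not used, and the number of arrays limits the precision. No value was missing and no feature was filtered. Features were paired with R64 symbols by systematic name: 5623 exactly, 194 after restoring a hyphen and 24 by a synonym, leaving 493 unnamed but in every test.

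Values were tested as deposited with limma 3.58.1 in R 4.3.3 (eBayes, two-sided, Benjamini-Hochberg over all features, or over all features and lines for single-line departures, at an adjusted p under 0.05). Slopes used the RPN4 value of the same column. A single line was assumed to vary like the others. Correlations with RPN4 had 100000 permutations. Medians over genes were described without a test. Alternatives changed scaling, quantile normalization, centring, array weights, eBayes settings, covariates, chromosome medians, gene length and the lines used. The steps were tested on simulated data. Python 3.11.15 with numpy 2.4.6, pandas 2.3.3, scipy 1.17.1 and matplotlib 3.10.9 was used.

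The members, subunit classes and gene lists were chosen with earlier results of these data known. Genes were named by a rule: RPN4; the 4 lowest p for the mean; the 4 highest and 4 lowest SD; the 5 lowest and 5 highest p for the slope; the 5 largest departures; and 10 other features each by likeness to the structural median and by slope on RPN4. Promoter motifs were not analysed here.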

Additional observations from a re-analysis of the deposited data

How the results depend on the processing

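Percentages in brackets give the share of all features called in the same run. The count of members with a called mean was 0 as deposited (9.22%). It was 1, RPT6, after scaling to a common median absolute deviation (11.6%) or quantile normalization (12.1%). With array weights it was 4 (20.5%). Without lines 10 and 42, chosen after the data were seen, it was 3 (10.8%), namely RPT2, RPT6 and PRE10. When each line was left out in turn it was 0 to 2 (7.17% to 10.8%). The count of called slopes on RPN4 was 2 as deposited (39.1%). It was 1 after quantile normalization (28%, RPN12 lost, limma adjusted p = 0.0596). It was 0 with the leading component as a term (0%), which RPN4 itself followed (r = 0.868). With the ribosomal protein median as a term it was 5 (23.1%), and without lines 6 and 44 it was 1 (28.4%). It was 1 with the signs of opposed columns turned (9.1%) and 3 with the gene length trend removed (41.7%, RPN1 added, limma adjusted p = 0.0497), both chosen after the data were seen. When each line was left out it was 1 to 4 (33.7% to 40.3%). The slope of PRE6 turned to 0.181 (limma adjusted p = 0.827) with the leading component as a term, and that of PRE9 to 0.696 (limma adjusted p = 0.00583) with the ribosomal term. The causes were not tested. The correlation of the core and regulatory medians was 0.625 without lines 10 and 42 and 0.680 to 0.781 when each line was left out. RPN2's correlation with the other subunits was -0.357 with the length trend removed and -0.604 without lines 10 and 42, and RPN1's and RPN2's kept their sign in every alternative run. Departures of members stayed at 0 in every alternative run, where the shares over all features were too low for this to mark the members. Those of all features went from 99 (0.068%) to 45 after scaling (0.0309%), 52 after quantile normalization (0.0357%) and 30 without lines 10 and 42 (0.0226%). Called slopes over all features went from 2479 to 576 with signs turned, 1464 with the ribosomal term and 0 with the leading component. No paired analysis was possible because the lines form a single group.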
